A study of Arabidopsis thaliana with 9 samples.

Results

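Cold treatment was followed over time in whole Arabidopsis thaliana seedlings, and the comparison described here is the one within the cold: 12 h at 4 °C against 3 h at 4 °C. All 3 libraries of the 12 h group and all 3 of the 3 h group were taken by their labels, 6 of the 9 RNA-seq libraries of the series. The seedlings were Col-0 wild type, labelled as 10 d old, although the methods and the treatment notes place the cold treatment on day 12. They were grown on MS medium in long days at 22 °C and moved to 4 °C under weaker light at ZT4 (zeitgeber time, hours after lights-on). The 12 h group was therefore collected at ZT16, the end of the light period, and the 3 h group at ZT7, in the same weak light and at the same temperature. Hours in the cold and time of day changed together, and their effects cannot be told apart in any value below. Each replicate was a pool of seedlings from its own plate. The 3 libraries from 22 °C, collected at ZT4 from the same wild type, entered the filter on low counts, the scaling, and the estimate of spread. They were not part of the contrast, and their levels are given where they help to read a pair of values.

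Plants of temperate climates acclimate when they meet a low temperature above freezing. Transcription factors are induced first, among them the CBF (C-repeat binding factor) proteins, which bind the CRT/DRE element in front of cold-regulated (COR) genes. The products of COR genes, many of them dehydrins and other hydrophilic proteins, together with raffinose, sucrose, maltose and proline, protect membranes and proteins during later freezing. The circadian clock gates this response and is itself changed by cold: CCA1 and LHY are its morning genes in warm plants, and TOC1, GI and the evening complex follow later in the day.

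Between 15910839 and 20881860 reads per library had been assigned to transcripts in the 12 h group, and between 18267618 and 24291683 in the 3 h group. Levels are given as CPM, read counts relative to the scaled size of the library, and the test was the quasi-likelihood F test of edgeR. Genes past an adjusted p of 0.05 were called when 12 h and 3 h differed by 0.5 or more on the log2 scale. The value in parentheses after a gene is its log2 fold change, 12 h over 3 h, ± SE (n = 3 each), and rises and falls are given on the same log2 scale. Of 20460 genes tested, 5271 (25.8%) were called, 2247 higher at 12 h (11.0%) and 3024 lower (14.8%). Counts of called members in the gene lists below are to be read against these shares. The rises were the larger ones: 131 genes were at least 8-fold higher and 30 at least 8-fold lower. The median over all genes tested was −0.03 on the log2 scale, and it was 1.02 among genes called higher and −0.89 among genes called lower. The 3 libraries at 12 h did not overlap with the 3 at 3 h for 10121 genes (49.5%), which include 5150 of the called ones. Whole seedlings were sampled, so fewer cells of a type and less RNA per cell cannot be told apart. Markers of roots and of green tissue were present in both groups, and the 9 root markers summed to 3805, 4070.0, and 4106 CPM in the 12 h libraries, against 4677, 3885, and 3826 CPM in the 3 h libraries. Most of that sum came from PYK10 alone. Of the 9 root markers 2 were called lower and 1 higher, as given below. The 8 seed storage genes listed summed to at most 2.24 CPM in any of the 6 libraries, and none passed the filter on low counts.

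**Figure D1:**
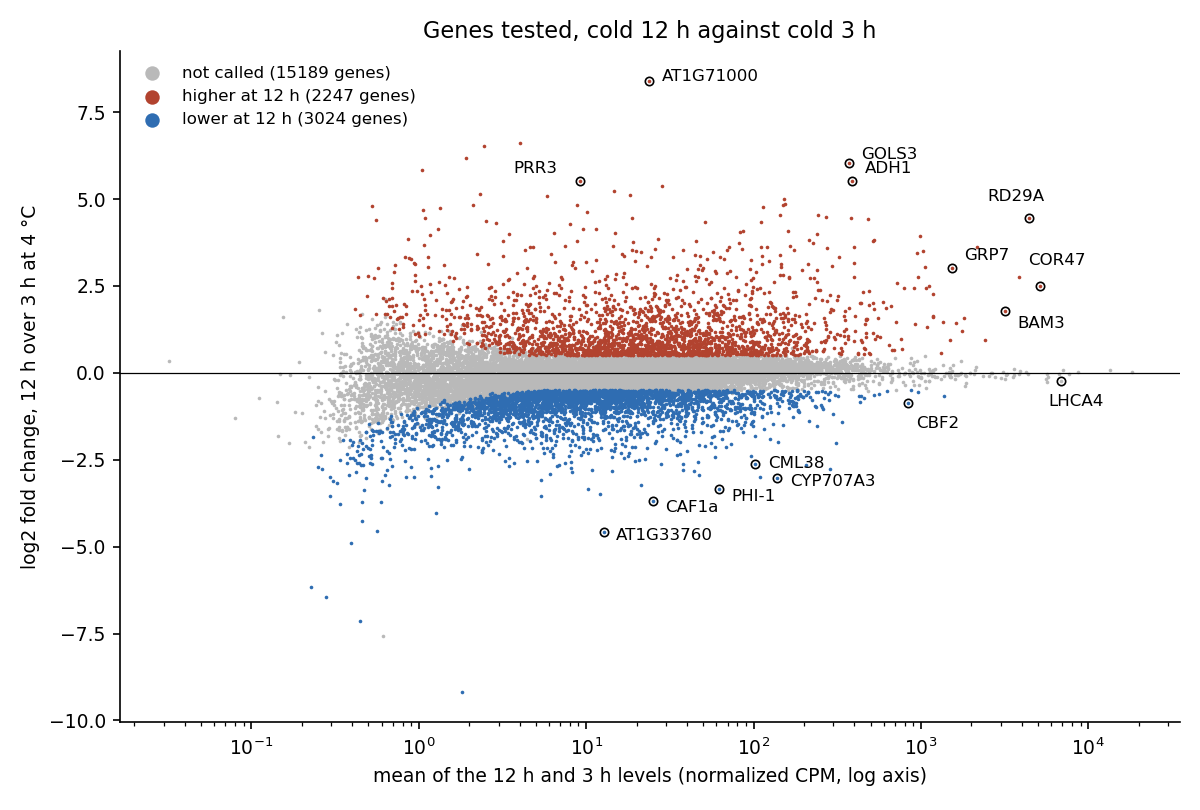
Mean level of each gene in the 6 cold libraries (normalized CPM, log axis) against its log2 fold change, 12 h over 3 h, for the 20460 genes tested, with called genes in color. Some of the genes named in the text are circled. RD29A, COR47, and GRP7 lie far to the right and above 2, and the light-harvesting gene LHCA4 lies close to 0.

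Several of the genes with the largest rises, among called genes of at least 10 CPM, were nearly silent at 3 h. AT1G71000 (chromosome 1, 26768792 to 26770177 in TAIR10.1), annotated as a chaperone with a DnaJ domain, had 50.1, 43.8, and 48.8 CPM at 12 h, against 0.154, 0, and 0.228 CPM at 3 h, where the 3 h group holds 9 reads in all. Its log2 fold change was 8.39 ± 0.32 (adjusted p = 1.2e-11). GOLS3 (chromosome 1, 3019639 to 3021443), a galactinol synthase that makes the galactosyl donor for raffinose, had 746, 762, and 692 CPM at 12 h, against 7.41, 14.0, and 12.6 CPM at 3 h and rose by 6.03 ± 0.18 (adjusted p = 1.3e-12). Every 12 h library stood far above every 3 h library for both. ADH1 (chromosome 1, 28975255 to 28977417), alcohol dehydrogenase of ethanol fermentation, had 769.9, 756, and 762 CPM at 12 h, against 17.8, 15.6, and 16.6 CPM at 3 h (5.51 ± 0.09, adjusted p = 5.2e-15). At 22 °C its level was 31.01 CPM, so the 3 h group was the lowest of the 3 groups and the 12 h group the highest. PRR3, a pseudo-response regulator of the clock, had 18.7, 19.1, and 16.1 CPM at 12 h, against 0.618, 0.216, and 0.274 CPM at 3 h (5.51 ± 0.26). The other rises among the 8 largest were AT4G28140, an AP2-type transcription factor (5.39), AT1G17665 (5.22), AT2G42150, which encodes a bromodomain protein (5.11), and the uncharacterized AT5G05220 (5.10).

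The largest falls included genes whose level was high at 3 h alone. AT1G33760 (chromosome 1, 12237547 to 12238710), another AP2-type transcription factor, had 1.24, 0.827, and 0.980 CPM at 12 h, against 28.7, 18.4, and 26.2 CPM at 3 h, and its level at 22 °C was 1.43 CPM. Its log2 fold change was −4.57 ± 0.23 (adjusted p = 2.3e-10). CYP707A3 (chromosome 5, 18368532 to 18371021), a hydroxylase that breaks down abscisic acid, had 30.9, 29.0, and 31.6 CPM at 12 h, against 249, 234, and 257 CPM at 3 h (−3.02 ± 0.10, adjusted p = 2.6e-12), and stood at 21.2 CPM at 22 °C. For both genes the 3 h libraries alone were high, and the 12 h level was much nearer to that of 22 °C. CAF1a (chromosome 3, 15952008 to 15953346), a deadenylase that shortens the poly(A) tails of mRNAs, had 3.56, 4.02, and 3.08 CPM at 12 h, against 50.8, 41.0, and 47.0 CPM at 3 h (−3.70 ± 0.14). Its level at 22 °C was 34.0 CPM, so here the 12 h libraries alone were low. AT2G30230 (−3.49), PHI-1, a phosphate-responsive protein (−3.33), and AT5G52050, a MATE-type transporter (−3.23), also fell. The 2 remaining genes among the 8 largest falls are uncertain. AT1G18010 had 2.32, 0, and 0 CPM at 12 h, against 10.3, 9.24, and 10.5 CPM at 3 h, and 92.3% of its 31-base words occur in other genes, so its reads may have been split with a copy. Its log2 fold change was −3.56 ± 1.13 (adjusted p = 0.02), and the call was lost without replicate 2 or replicate 3 of the 12 h group and with DESeq2 (−3.68 to −2.97). AT1G72910, which encodes a TIR-domain protein, shares 24.4% of its words (−3.33).

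COR genes took up far more of the library at 12 h. Of the 17 COR genes, 16 were higher at 12 h and none lower, with a median log2 fold change of 2.91 over the list, against −0.03 over all genes. Their summed level was 41034, 41156, and 43042 CPM in the 12 h libraries, against 5358, 5782, and 5577 CPM in the 3 h libraries. RD29A, also known as LTI78, had 8507, 8537, and 8287 CPM at 12 h, against 317, 448, and 379.6 CPM at 3 h (4.47 ± 0.22, adjusted p = 1.9e-10), and it had the largest gain in CPM of all genes. Dehydrins followed, which bind water and membranes in drying cells: COR47 had 8517, 8562, and 9232 CPM at 12 h, against 1436, 1602, and 1599 CPM at 3 h (2.50 ± 0.14), and its neighbor ERD10 had 6299, 6096, and 7682 CPM at 12 h, against 891, 1033, and 1032 CPM at 3 h (2.76 ± 0.14). LTI30, another dehydrin, had 4013, 3988, and 3979 CPM at 12 h, against 371, 299, and 298 CPM at 3 h (3.63 ± 0.23), and on the scale per transcript length its gain was the second largest, 4239 TPM (the level per transcript length). By gain in TPM, COR47 ranked 5, ERD10 7, and RD29A 9. For these genes and LTI30 the libraries did not overlap between the groups, and the 3 libraries within a group lay close together. COR27, which acts between cold and the clock, had the largest fold of the list (4.48 ± 0.26), with 523, 525, and 509 CPM at 12 h, against 11.7, 33.9, and 24.8 CPM at 3 h. COR15A, whose product protects chloroplast membranes, had 1804, 2032, and 1755 CPM at 12 h, against 121, 135, and 108 CPM at 3 h (3.94 ± 0.13).

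A few COR genes had wide groups. RAB18, an abscisic acid-responsive dehydrin, was the only COR gene not called, with 118, 199, and 128 CPM at 12 h, against 168, 73.6, and 90.09 CPM at 3 h (0.42 ± 0.26, adjusted p = 0.22), and its groups overlap. RD29B had 146, 221, and 130.0 CPM at 12 h, against 91.0, 43.8, and 45.3 CPM at 3 h (1.46 ± 0.30), and LEA4-5, a late embryogenesis abundant protein, had 162, 247, and 142 CPM at 12 h, against 38.6, 16.1, and 18.0 CPM at 3 h (2.91 ± 0.32). In all 3 genes replicate 2 was the highest of the 12 h group and replicate 1 the highest of the 3 h group.

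CRT/DRE and evening elements stand close to the start of several of these genes, though not of all. The sequences printed here are the 250 bases before the RefSeq gene start (TAIR10.1), read on the strand of the gene, of genes whose rise is described in this section or with the clock. They were chosen after their values were seen. Capitals mark the CRT/DRE core CCGAC, or GTCGG where it lies on the other strand, in the first 3 sequences, and the evening element AAATATCT, or AGATATTT on the other strand, in the other 3. The first motif is bound by CBF proteins, the second by clock MYB proteins of the CCA1 and RVE family. A match in this window is a sequence match and no evidence of binding. The windows are RD29A (chr5:21240467-21240716, plus strand), LTI30 (chr3:18940393-18940642, plus strand), GOLS3 (chr1:3019389-3019638, plus strand), GRP7 (chr2:9266558-9266807, minus strand), TOC1 (chr5:24674713-24674962, plus strand), and AT1G71000 (chr1:26770178-26770427, minus strand).
RD29A: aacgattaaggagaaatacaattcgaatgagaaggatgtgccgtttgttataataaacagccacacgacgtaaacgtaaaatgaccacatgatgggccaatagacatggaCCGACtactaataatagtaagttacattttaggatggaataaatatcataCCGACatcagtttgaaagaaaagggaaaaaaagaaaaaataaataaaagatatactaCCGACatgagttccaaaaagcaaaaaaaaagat
LTI30: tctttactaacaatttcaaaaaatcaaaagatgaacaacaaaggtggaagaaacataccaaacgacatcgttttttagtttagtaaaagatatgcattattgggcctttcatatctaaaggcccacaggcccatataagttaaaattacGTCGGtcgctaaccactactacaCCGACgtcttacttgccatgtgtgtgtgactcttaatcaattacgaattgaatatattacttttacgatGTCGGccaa
GOLS3: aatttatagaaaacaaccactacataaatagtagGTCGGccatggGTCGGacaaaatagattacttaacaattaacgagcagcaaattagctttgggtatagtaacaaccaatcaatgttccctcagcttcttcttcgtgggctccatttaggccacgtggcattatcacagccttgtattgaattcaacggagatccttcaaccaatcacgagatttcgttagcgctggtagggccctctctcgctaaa
GRP7: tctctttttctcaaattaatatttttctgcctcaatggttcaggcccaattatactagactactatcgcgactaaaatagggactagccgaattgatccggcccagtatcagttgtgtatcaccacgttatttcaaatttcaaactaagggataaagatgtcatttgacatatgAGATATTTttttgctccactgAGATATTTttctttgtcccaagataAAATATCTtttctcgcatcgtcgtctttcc
TOC1: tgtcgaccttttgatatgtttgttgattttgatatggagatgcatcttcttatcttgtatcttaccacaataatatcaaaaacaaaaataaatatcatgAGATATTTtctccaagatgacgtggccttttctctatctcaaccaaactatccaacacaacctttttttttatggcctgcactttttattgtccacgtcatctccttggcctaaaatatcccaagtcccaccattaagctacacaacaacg
AT1G71000: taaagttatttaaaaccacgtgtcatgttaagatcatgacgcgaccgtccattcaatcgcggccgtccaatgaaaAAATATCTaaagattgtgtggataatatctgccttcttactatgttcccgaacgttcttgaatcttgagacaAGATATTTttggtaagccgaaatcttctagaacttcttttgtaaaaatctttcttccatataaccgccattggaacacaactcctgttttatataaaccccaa
RD29A and LTI30 hold 3 CRT/DRE cores each and GOLS3 holds 2. GRP7 holds 3 evening elements, AT1G71000 holds 2, and TOC1 holds 1. None of the 6 windows holds both motifs. Of the other genes with large rises given here, PRR3, GI, BAM3, and ADH1 hold neither motif in their windows. In the COR list 7 of 17 windows hold the CRT/DRE core (41.2%) and 4 hold the evening element (23.5%), and COR47 and ERD10 hold neither. The CRT/DRE core was found in a larger share of the Aux/IAA list (10 of 19, 52.6%), whose median log2 fold change was 0.19, and in 4 of 11 common reference genes (36.4%).

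Over all promoters both motifs were found more often in front of genes that rose than of genes that fell. Windows of 20427 tested genes were searched on both strands for 12 motifs, and the shares are descriptions without a test. CCGAC was found in 22.5% of the promoters of genes higher at 12 h and 7.90% of those lower, against 13.0% of all promoters. Among genes at least 2-fold higher the share was 27.5%. AAATATCT was found in 13.0% of promoters of higher genes and 4.00% of lower ones, against 4.99% of all, and in 15.5% of those at least 2-fold higher. The letters of these 2 motifs cannot overlap. Read from the motif, 293 of the 1019 genes with an evening element were higher (28.8%) and 121 lower (11.9%), and 505 of the 2646 genes with a CRT/DRE core were higher (19.1%) and 239 lower (9.03%). Both elements occur together in 127 promoters, of which 56 belong to genes higher at 12 h (44.1%) and 5 to genes lower (3.94%). Smaller differences were seen for the G-box CACGTG, bound by bZIP and bHLH proteins (11.0% of higher, 6.51% of lower, 7.53% of all), and for the ABRE core ACGTGT, bound by abscisic acid-response bZIP proteins (15.2%, 11.6%, and 11.5%). These 2 motifs overlap in their letters. The site II element TGGGCC, common in front of ribosomal protein genes, was less frequent in both called sets (13.4% of higher, 9.33% of lower, 16.2% of all). The W-box form TTGACT, bound by WRKY proteins, was found in 16.7% of higher, 20.7% of lower, and 18.7% of all promoters. The other 6 motifs differed by less between the sets. They were the letters TTGACC of the W-box, the letters CGCGT bound by CAMTA proteins, the letters GCCGCC bound by ERF proteins, the telo-box AAACCCTA, the heat shock element GAANNTTC, and the I-box GATAAG.

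**Figure D2:**
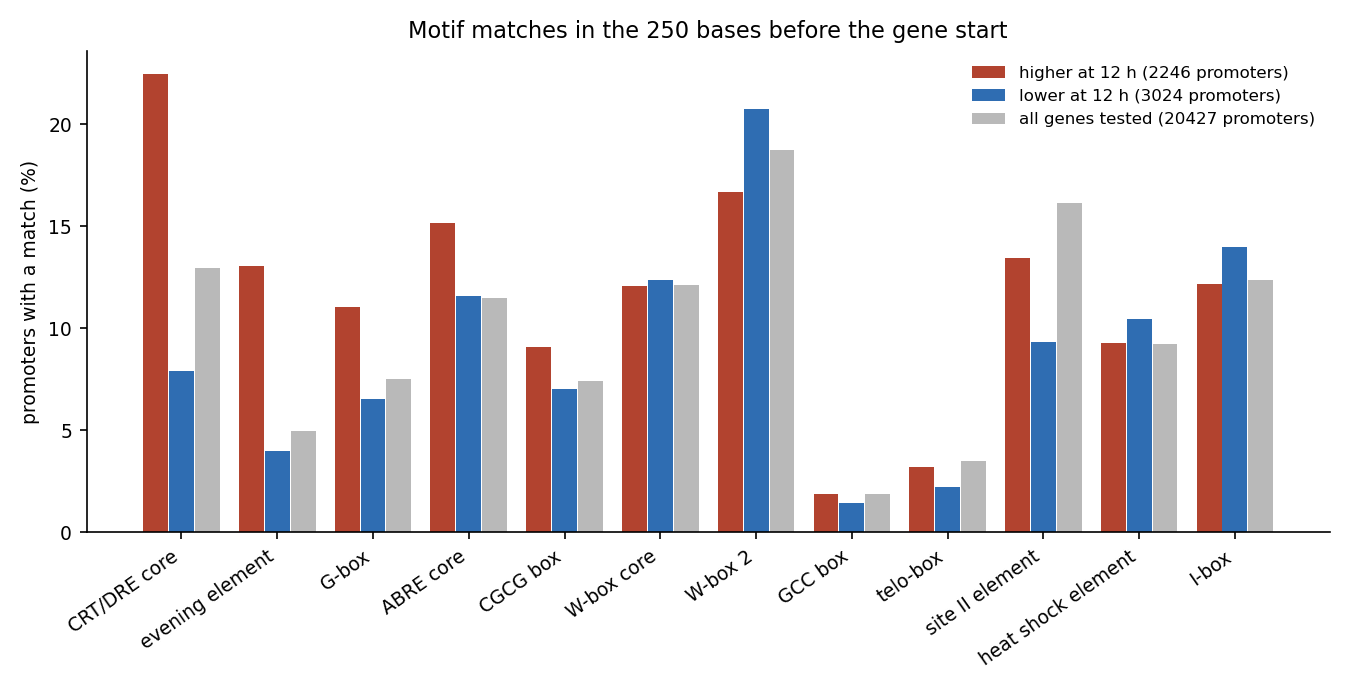
Share of promoters (the 250 bases before the gene start, in percent) with at least 1 match to each of 12 motifs, for 2246 genes higher at 12 h, 3024 genes lower, and all 20427 genes with a promoter sequence. The CRT/DRE core and the evening element show the widest gaps between higher and lower genes, 22.5% against 7.90% and 13.0% against 4.00%.

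Early cold transcription factors moved the other way from the COR genes. Of 27 factors known to rise in the first hours of cold, 19 were lower at 12 h, 6 higher, and 2 not called, with a median of −0.81. CBF2 had 657, 487, and 619 CPM at 12 h, against 1102, 1042, and 1094 CPM at 3 h (−0.88 ± 0.10, adjusted p = 3.3e-06); 11.0% of its words are shared with its neighbors CBF1 and CBF3, which were lower too (−0.67 and −0.64). All 3 remained far above 22 °C, where CBF2 had 3.21 CPM. Factors of the ERF and WRKY families fell most. ERF11, a repressor of the ethylene response, had 4.203, 2.78, and 3.57 CPM at 12 h, against 24.8, 24.32, and 26.2 CPM at 3 h (−2.83 ± 0.17). WRKY40, a repressor of defense and abscisic acid responses, had 16.7, 7.79, and 15.8 CPM at 12 h, against 81.2, 79.3, and 78.4 CPM at 3 h (−2.57 ± 0.18), and WRKY46 fell as well (−2.56 ± 0.20). ERF105, which contributes to freezing tolerance, had 6.57, 7.38, and 6.51 CPM at 12 h, against 43.1, 34.9, and 35.8 CPM at 3 h (−2.48 ± 0.12, adjusted p = 1.3e-10). ZAT10, a zinc finger repressor, had 77.2, 72.0, and 75.3 CPM at 12 h, against 181, 154, and 166 CPM at 3 h (−1.16 ± 0.08). Levels of ERF11 and WRKY40 at 12 h were near those of 22 °C (2.85 and 14.6 CPM), and that of ZAT10 was above it (33.9 CPM).

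Other factors of the same list were higher at 12 h than at 3 h. RAP2.1, a repressor of the DREB family and a target of the CBF pathway, had 75.3, 70.3, and 63.9 CPM at 12 h, against 5.48, 5.78, and 6.71 CPM at 3 h (3.54 ± 0.12, adjusted p = 3.9e-12). DEAR1, a related repressor, had 181, 138, and 182 CPM at 12 h, against 18.22, 32.2, and 29.3 CPM at 3 h (2.66 ± 0.17), and ZAT6, a zinc finger protein, had 179, 199.9, and 176 CPM at 12 h, against 36.4, 35.3, and 31.2 CPM at 3 h (2.43 ± 0.10, adjusted p = 4.6e-11). RAP2.1 was about as low at 3 h as at 22 °C (5.03 CPM). CZF1 had the highest level among the factors not called (−0.16). Of the 13 regulators upstream of CBF genes 2 were lower (15.4%, against 14.8% of all genes) and 11 not called. The median of 0.06 turned to −0.02 under upper quartile scaling. CRLK1, a calcium-regulated receptor-like kinase (−1.17 ± 0.12), and the kinase MPK3 (−0.57 ± 0.09) fell, whereas ICE1, the activator of CBF3, stood at 55.4 ± 4.86 CPM at 12 h and 47.7 ± 2.99 CPM at 3 h (SD, n = 3; 0.22, not called).

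**Figure D3:**
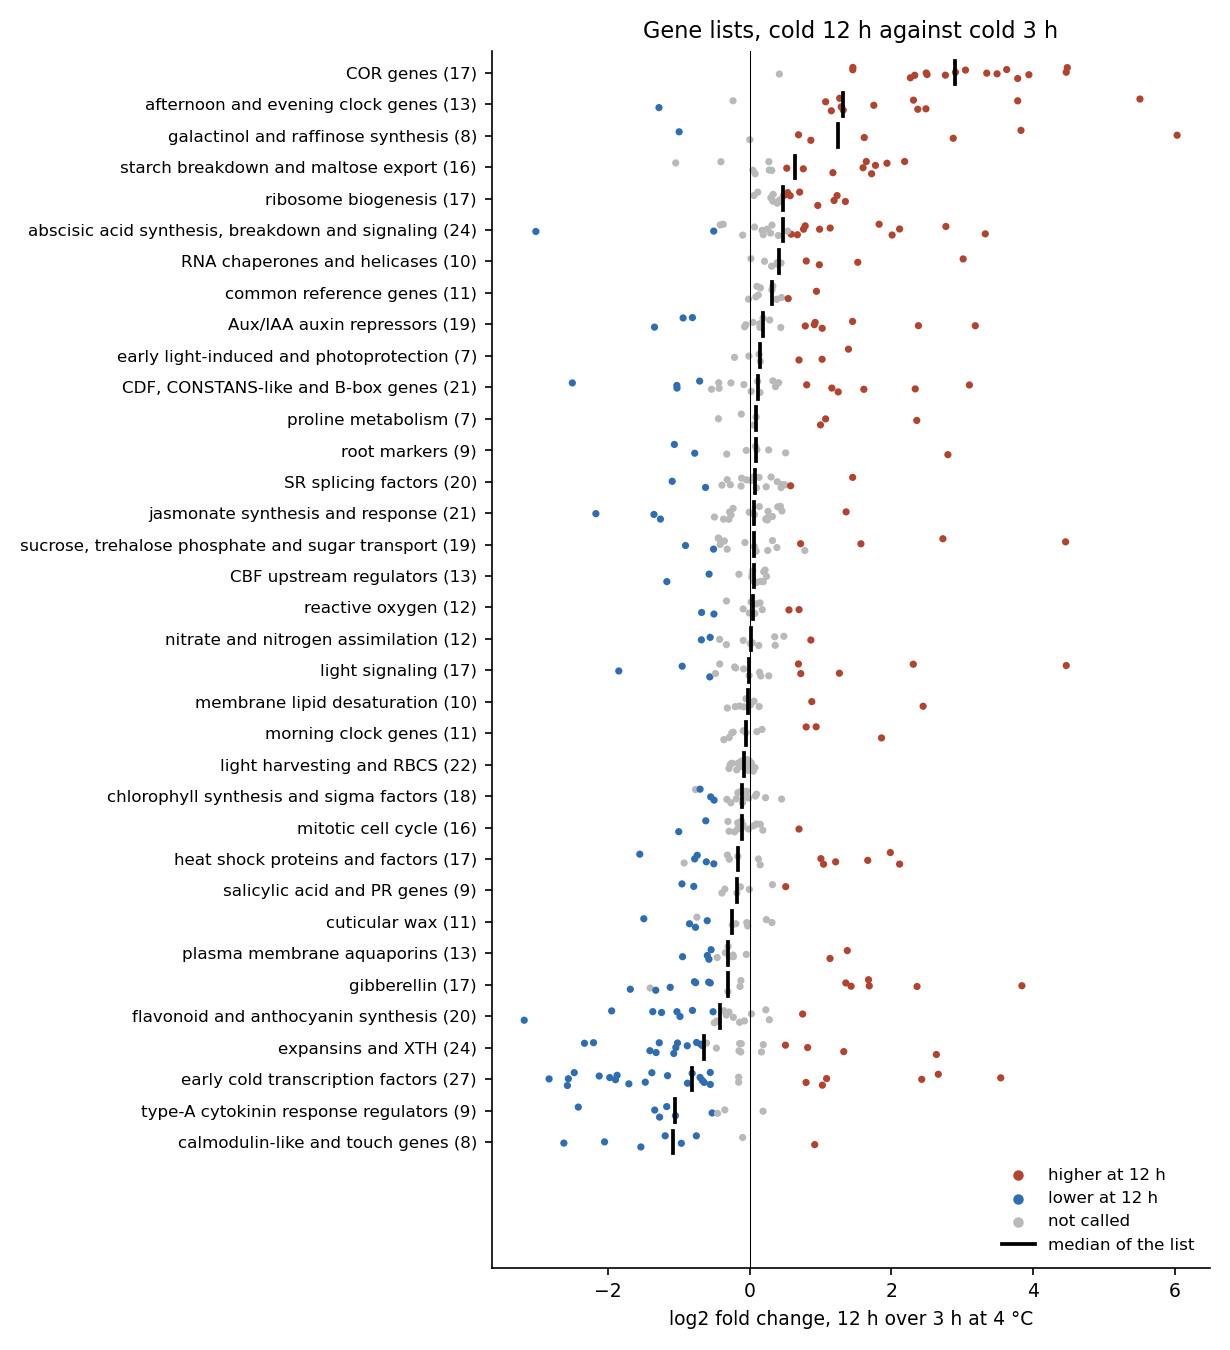
Log2 fold change, 12 h over 3 h, of each tested gene (points) in 35 gene lists, ordered by the median of the list (black bar), with the number of tested genes in parentheses. COR genes have the highest median, 2.91, calmodulin-like and touch genes the lowest, −1.08, and the 22 light-harvesting and RBCS genes lie between −0.29 and 0.08.

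Raffinose and starch breakdown genes were called higher more often than lower. In galactinol and raffinose synthesis 6 of 8 genes were higher and 1 lower, with a median of 1.24. RS5, raffinose synthase, had 1012, 1022, and 915 CPM at 12 h, against 73.4, 72.5, and 61.4 CPM at 3 h (3.83 ± 0.12, adjusted p = 1.4e-12), and GOLS2 had 93.8, 133, and 88.4 CPM at 12 h, against 21.3, 10.1, and 11.0 CPM at 3 h (2.87 ± 0.28). The mean of RS5 at 22 °C was 55.5 CPM, close to its 3 h level. DIN10, annotated in the raffinose synthase family, had 192, 142, and 177 CPM at 12 h, against 243, 412, and 364 CPM at 3 h (−0.99 ± 0.17). Starch breakdown had 9 of 16 genes higher and none lower, with a median of 0.64 and a summed level of 6469.6, 5797, and 6448 CPM in the 12 h libraries, against 1865, 2271, and 2209 CPM in the 3 h libraries. BAM3, the plastid beta-amylase that releases maltose, gave most of that sum, with 5064, 4453, and 5159.8 CPM at 12 h, against 1188, 1576, and 1521 CPM at 3 h (1.78 ± 0.11). SEX1, a glucan water dikinase that phosphorylates starch before its breakdown, had 296, 295, and 254 CPM at 12 h, against 59.3, 62.9, and 63.3 CPM at 3 h (2.19 ± 0.08, adjusted p = 1.2e-11). PHS2, a cytosolic glucan phosphorylase, rose by 1.94 ± 0.08, AMY3, a plastid alpha-amylase, by 1.72 ± 0.09, and PWD, a second dikinase, by 1.65 ± 0.09. BAM1 had the highest level of the genes not called (151 ± 4.01 CPM at 12 h and 146 ± 16.4 CPM at 3 h, SD, n = 3).

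Among genes of sucrose, trehalose phosphate, and sugar transport 4 of 19 were higher and 2 lower (31.6% called, against 25.8% of all genes). The median of 0.07 turned to −0.01 under upper quartile scaling. The lower count was 4 under that scaling and 1 without replicate 2 of the 12 h group and with DESeq2. SUS1, a sucrose synthase known from low oxygen, had 741, 734, and 708 CPM at 12 h, against 33.6, 34.9, and 30.7 CPM at 3 h (4.46 ± 0.08, adjusted p = 1.2e-14), and its level at 22 °C was 32.8 CPM. The groups were wide apart, and the 3 h libraries matched those of 22 °C. SPS2F, a sucrose phosphate synthase, had 355, 425, and 353 CPM at 12 h, against 79.4, 46.6, and 44.4 CPM at 3 h (2.73 ± 0.22), and TPS10, of the trehalose phosphate synthase family, rose by 1.57 ± 0.08. Proline genes had 3 of 7 higher. P5CS2, an enzyme of the first step of proline synthesis, had 822, 819, and 814 CPM at 12 h, against 159, 162, and 158 CPM at 3 h (2.36 ± 0.07, adjusted p = 1.2e-12), its close relative P5CS1 had 491, 577, and 428 CPM at 12 h, against 275, 223, and 213 CPM at 3 h (1.07 ± 0.12), and the transporter PROT2 rose by 1.000 ± 0.10. ERD5, the proline dehydrogenase, was not called (−0.44), and 1 gene of the list was lower without replicate 1 of the 3 h group. For the desaturases of membrane lipids 2 of 10 were higher. ADS2, an acyl-lipid desaturase needed for chilling tolerance, had 1931, 1734, and 1787 CPM at 12 h, against 249, 400.1, and 349 CPM at 3 h (2.45 ± 0.13), and FAD3 rose by 0.88 ± 0.07. FAD2 had the highest level of the others (0.13).

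**Figure D4:**
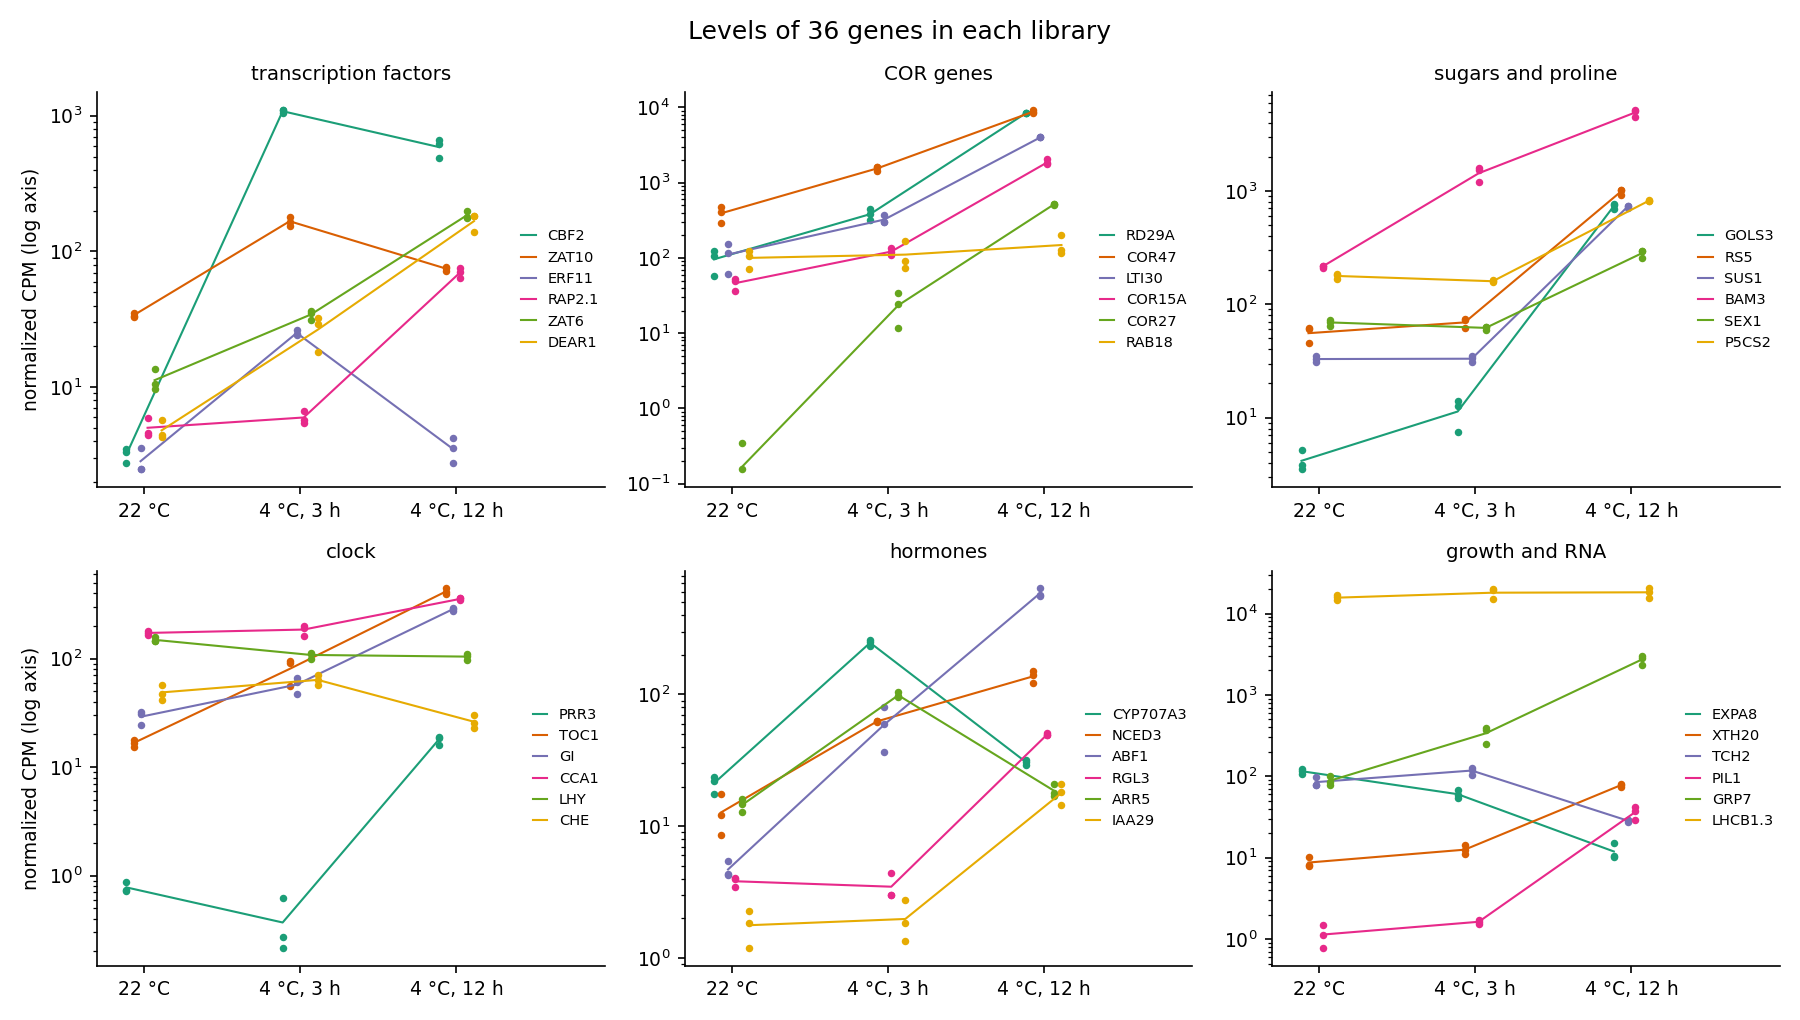
Normalized CPM (log axis) of 36 genes in each library at 22 °C, after 3 h, and after 12 h at 4 °C, in 6 panels by function; points are libraries and lines join the means of 3. CBF2, ERF11, CYP707A3, and ARR5 peak at 3 h, RD29A, GOLS3, PRR3, and RGL3 are highest at 12 h, and LHCB1.3 and LHY have overlapping groups at 3 h and 12 h. COR27 had no read in 1 library at 22 °C, which has no point on this axis.

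Clock genes of the afternoon and evening were called higher more often than those of the morning. Of 13 genes listed as afternoon and evening clock genes, 11 were higher at 12 h (ZT16) than at 3 h (ZT7), with a median of 1.32. TOC1, a repressor of CCA1 and LHY, had 444, 395, and 409 CPM at 12 h, against 55.7, 95.3, and 90.5 CPM at 3 h (2.37 ± 0.15, adjusted p = 3.4e-09). GI, a co-chaperone of clock proteins, had 292, 289, and 277 CPM at 12 h, against 46.9, 65.7, and 60.3 CPM at 3 h (2.31 ± 0.12). JMJD5, a demethylase-like clock protein, had 18.0, 17.5, and 14.1 CPM at 12 h, against 1.27, 0.703, and 1.55 CPM at 3 h (3.78 ± 0.22), and BOA, a relative of the evening complex member LUX, rose by 2.49 ± 0.29. In 8 of the 11 genes replicate 1 was the lowest of the 3 h libraries, PRR5 among them, with 528, 501, and 491 CPM at 12 h, against 135, 272, and 224 CPM at 3 h (1.27 ± 0.17), but at 12 h the libraries lay close together. CHE, a TCP protein that represses CCA1, was the single member to fall (−1.28 ± 0.13), and ZTL, which is steady at the RNA level in warm days, was not called (−0.23). Evening elements were found in 6 of the 13 promoters (46.2%), those of PRR5, TOC1, ELF4, LUX, BOA, and FKF1.

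Morning genes gave 3 higher of 11 and none lower (27.3% called, against 25.8% of all genes), with a median of −0.05. CCA1 had 359, 347, and 360.5 CPM at 12 h, against 163, 202, and 192 CPM at 3 h (0.94 ± 0.08), while its partner LHY had 104.7, 111, and 97.5 CPM at 12 h, against 99.8, 111, and 114 CPM at 3 h (−0.05 ± 0.08, adjusted p = 0.65). CCA1 and LHY thus parted within the cold: the groups do not overlap for CCA1 and overlap for LHY. PRR7 rose by 0.80 ± 0.10 and PRR9 by 1.86 ± 0.08, although 32.6% of the words of PRR9 are shared with other genes. In the list of CDF, CONSTANS-like, and B-box genes 6 of 21 were higher and 4 lower, with a median of 0.11. CO, which promotes flowering in long days, had 2.48, 1.95, and 3.15 CPM at 12 h, against 0.193, 0.216, and 0.456 CPM at 3 h (3.10 ± 0.50), COL9, a repressor of CO, had 226, 190.4, and 206 CPM at 12 h, against 25.6, 54.2, and 44.0 CPM at 3 h (2.34 ± 0.19), and BBX32, a B-box protein, fell at low levels, with 0.485, 0.295, and 0.560 CPM at 12 h, against 3.17, 2.43, and 1.962 CPM at 3 h (−2.50 ± 0.30).

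Photoreceptors and their partners had 5 of 17 higher and 3 lower, with a median of −0.01, which ran from −0.09 to 0.04 over the alternatives, and 5 were lower under upper quartile scaling. PIL1, a bHLH protein known from the shade response, had 42.1, 37.2, and 29.2 CPM at 12 h, against 1.54, 1.62, and 1.73 CPM at 3 h (4.47 ± 0.19, adjusted p = 3.3e-11). HFR1, an atypical bHLH protein of the same response, had 98.8, 104, and 99.9 CPM at 12 h, against 17.57, 21.3, and 22.2 CPM at 3 h (2.31 ± 0.09), and the blue light receptor CRY2 rose by 1.27 ± 0.08. The PIF proteins, growth-promoting partners of phytochrome, differed among themselves: PIF1 (−1.85 ± 0.12) and PIF5 (−0.95 ± 0.09) fell, whereas PIF3 rose (0.69 ± 0.09). PHOT1 was the member with the highest level among those not called (0.27).

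None of the 22 light-harvesting and RBCS genes, which encode antenna proteins and the small subunit of Rubisco, was called. Their log2 fold changes ran from −0.29 to 0.08 with a median of −0.08, and over the alternatives the median ran from −0.16 to 0.03. Their summed level was 125441, 99158, and 116160.0 CPM in the 12 h libraries, against 102295, 125425, and 126126 CPM in the 3 h libraries, so the groups overlap. Up to 40.4% of the words of a gene in this list are shared with other genes, and reads may have moved between such copies. LHCA4, LHCB3, and LHCA1 still stand among the 5 genes with the largest loss in CPM, with differences of −1171, −1073, and −629 CPM, although none passed the test. The other 2 are CBF2 and SAMDC, S-adenosylmethionine decarboxylase of polyamine synthesis, which had 1105, 1029.6, and 1041 CPM at 12 h, against 1602, 1727, and 1759.8 CPM at 3 h (−0.68 ± 0.08). Photoprotection gave 3 of 7 higher: ELIP1, an early light-induced protein, rose by 1.40 ± 0.21, NPQ1, the violaxanthin de-epoxidase, by 1.02 ± 0.12, and ELIP2 by 0.70 ± 0.13. Among 18 genes of chlorophyll synthesis and sigma factors 3 were lower (16.7%, against 14.8% of all genes) and none higher. SIG4, a sigma factor of the plastid RNA polymerase, fell (−0.70 ± 0.13), while CAO (−0.55) and GUN4 (−0.50), both of chlorophyll synthesis, lay close to the threshold. Without replicate 2 of the 12 h group 1 gene was lower and 1 higher, and without replicate 2 of the 3 h group 1 was higher.

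Flavonoid and anthocyanin genes were lower at 12 h in 8 of 20 cases and higher in 1, with a median of −0.41. Genes of the late, anthocyanin-specific steps and their regulators were among them. UF3GT, a glycosyltransferase of anthocyanins, had 3.99, 6.02, and 3.50 CPM at 12 h, against 22.8, 17.2, and 12.2 CPM at 3 h (−1.95 ± 0.25), LDOX, the anthocyanidin synthase, had 47.9, 66.0, and 40.2 CPM at 12 h, against 126, 102, and 85.4 CPM at 3 h (−1.03 ± 0.17), and DFR, the reductase before it, had 60.0, 95.6, and 63.3 CPM at 12 h, against 156, 124, and 104 CPM at 3 h (−0.81 ± 0.17). TT8 (−1.37 ± 0.24) and MYB75 (−1.24 ± 0.30), the bHLH and MYB activators of these steps, fell. Replicate 2 was the highest of the 12 h libraries for each of these 5 genes. The falls were not confined to late steps: 4CL3, of an earlier step, was also called lower (−0.98). TT4, chalcone synthase of the first step, was not called (−0.36), nor was PAL2, the uncalled member of highest level (0.23). MYB12, an activator of flavonols, rose by 0.75 ± 0.21.

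Abscisic acid genes had 11 of 24 higher and 2 lower, with a median of 0.47. NCED3, which makes the committed step of stress-induced synthesis, had 140.1, 150.4, and 122 CPM at 12 h, against 63.2, 62.6, and 61.9 CPM at 3 h (1.14 ± 0.15), and AAO3, an oxidase of the last step, rose by 0.78 ± 0.12. CYP707A3 fell, as given above, whereas the related CYP707A4 had 3.56, 5.55, and 5.81 CPM at 12 h, against 0.965, 1.57, and 1.19 CPM at 3 h (2.01 ± 0.29). Activators and negative regulators of the response were both higher. ABF1, a bZIP activator, had 570.1, 561, and 638 CPM at 12 h, against 36.8, 80.5, and 59.8 CPM at 3 h (3.33 ± 0.20, adjusted p = 1.7e-09), ABI5, another bZIP protein, had 14.0, 11.9, and 11.1 CPM at 12 h, against 1.70, 1.62, and 2.099 CPM at 3 h (2.77 ± 0.20), and ABI2, a phosphatase that holds the pathway down, had 119, 136, and 91.4 CPM at 12 h, against 30.96, 24.5, and 24.2 CPM at 3 h (2.12 ± 0.15). ABA1, an enzyme of synthesis, had the highest level of those not called (0.30), and ABA2, the other gene called lower (−0.51), lost its call without replicate 3 of the 3 h group or replicate 2 of the 12 h group, and with DESeq2.

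Gibberellin genes were called in 13 of 17 cases, 6 higher and 7 lower. RGL3, a DELLA repressor of growth, had 51.1, 49.0, and 49.6 CPM at 12 h, against 3.01, 3.03, and 4.38 CPM at 3 h (3.84 ± 0.13, adjusted p = 4.7e-12), and at 22 °C it had 3.82 CPM. GA2OX6, an inactivating enzyme, had 71.5, 64.1, and 72.3 CPM at 12 h, against 19.6, 21.4, and 23.5 CPM at 3 h (1.69 ± 0.09), the receptor GID1A had 93.5, 90.8, and 92.0 CPM at 12 h, against 24.4, 31.1, and 31.03 CPM at 3 h (1.68 ± 0.11), and GA20OX1, a synthesis enzyme, rose by 2.36 ± 0.26. The rises covered repressor, receptor, synthesis, and inactivation genes. The falls were less firm, since 3 genes were lower without replicate 1 of the 3 h group, 4 without replicate 2 of that group or replicate 1 or 2 of the 12 h group, and 2 without replicate 3 of the 12 h group. GA3OX2, of the last synthesis step, had 1.08, 2.78, and 0.770 CPM at 12 h, against 5.21, 3.999, and 5.80 CPM at 3 h (−1.68 ± 0.34). RGA1, the DELLA gene of the highest level, was not called (−0.14).

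Genes that restrain auxin and cytokinin responses were called in both directions for auxin and in one for cytokinin. Of 19 Aux/IAA genes, early targets of auxin that restrain its response, 7 were higher and 3 lower, with a median of 0.19. IAA29 had 14.5, 21.1, and 18.1 CPM at 12 h, against 1.35, 1.84, and 2.74 CPM at 3 h (3.19 ± 0.25), IAA19 had 28.8, 25.4, and 34.4 CPM at 12 h, against 9.46, 11.2, and 11.7 CPM at 3 h (1.45 ± 0.16), and IAA2 had 343, 329.9, and 359.7 CPM at 12 h, against 196, 170.1, and 178 CPM at 3 h (0.93 ± 0.09). IAA4 was lower (−0.81 ± 0.11). Type-A response regulators, early targets of cytokinin, were lower in 6 of 9 cases and higher in none, with a median of −1.05. ARR5 had 17.8, 16.9, and 20.8 CPM at 12 h, against 96.9, 95.2, and 104 CPM at 3 h (−2.42 ± 0.10, adjusted p = 2.2e-11), and its level at 22 °C was 14.5 CPM. ARR6 (−1.34 ± 0.12), ARR4 (−1.27 ± 0.09), and ARR8 (−1.17 ± 0.11) fell as well, and ARR9 was not called (−0.45). The call of ARR7 (−0.53) was lost without replicate 2 or 3 of the 3 h group or replicate 1 or 2 of the 12 h group (−0.55 to −0.34), and that of ARR16 (−1.05) without any 1 of the cold libraries other than replicate 3 of the 3 h group and in other alternatives (−1.17 to −0.53).

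Among jasmonate genes 1 of 21 was higher and 3 lower (19.0% called, against 25.8% of all genes). The lower count was 5 without replicate 2 of the 12 h group. The higher count was 2 without replicate 2 of the 3 h group or replicate 3 of the 12 h group. LOX4, a lipoxygenase, had 7.54, 7.85, and 9.87 CPM at 12 h, against 39.2, 36.5, and 37.4 CPM at 3 h (−2.17 ± 0.13), MYC2, the main bHLH factor of the response, had 42.9, 39.5, and 37.0 CPM at 12 h, against 113, 97.3, and 94.7 CPM at 3 h (−1.35 ± 0.09), and the repressor JAZ3 rose by 1.36 ± 0.08. Touch and calmodulin-like genes, known for rapid and short-lived induction, were lower in 6 of 8 cases with a median of −1.08. CML38, a calcium sensor, had 32.8, 17.598, and 35.7 CPM at 12 h, against 169, 173, and 186 CPM at 3 h (−2.62 ± 0.18), and TCH2, of the same family, had 29.3, 27.4, and 28.8 CPM at 12 h, against 128, 104.6, and 121 CPM at 3 h (−2.05 ± 0.10, adjusted p = 2.2e-10). TCH4, a cell wall enzyme (−1.53 ± 0.13), and TCH3, a calmodulin-like protein (−1.19 ± 0.13), fell, while CML37 rose by 0.92 ± 0.18. Levels of TCH2 at 12 h lay below those of 22 °C (84.8 CPM), but those of CML38 lay above (5.85 CPM). Salicylic acid genes gave 2 of 9 lower, the defense regulators EDS1 (−0.95) and CBP60G (−0.79), and NPR1, the salicylic acid receptor, higher (0.51). The share called was 33.3%, against 25.8% of all genes. The call of NPR1 was lost without replicate 1 or 3 of the 3 h group or replicate 1 or 2 of the 12 h group (0.43 to 0.50).

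Cell wall loosening genes were lower in 12 of 24 cases and higher in 4, with a median of −0.64. EXPA8, an expansin, had 15.1, 10.3, and 10.4 CPM at 12 h, against 67.8, 54.3, and 59.1 CPM at 3 h (−2.33 ± 0.13, adjusted p = 1.1e-09), and XTH16, a xyloglucan endotransglucosylase, had 3.88, 3.19, and 3.57 CPM at 12 h, against 16.3, 17.1, and 15.8 CPM at 3 h (−2.203 ± 0.15). XTH27 (−1.41 ± 0.08) and EXPA6 (−1.32 ± 0.10) fell too. Against this direction XTH20 had 74.7, 81.4, and 77.7 CPM at 12 h, against 12.5, 14.2, and 11.0 CPM at 3 h (2.64 ± 0.11, adjusted p = 3.5e-11), and XTH30 rose by 1.33 ± 0.09. XTH4, with the highest level of those not called, had overlapping groups (−0.14). Of 16 mitotic genes 3 were called (18.8%, against 25.8% of all genes), with a median of −0.11. CYCA1;1 (with 3.45, 3.31, and 4.55 CPM at 12 h, against 8.49, 7.94, and 6.02 CPM at 3 h) and CYCA2;3 (−0.62) were lower, and CYCB2;3 (0.70) was higher. Of the 13 plasma membrane aquaporins 2 were higher and 4 lower. PIP2;5 had 24.0, 24.98, and 24.0 CPM at 12 h, against 8.996, 9.998, and 9.13 CPM at 3 h (1.38 ± 0.11) and PIP2E had 701, 639, and 604 CPM at 12 h, against 258, 320.3, and 307 CPM at 3 h (1.13 ± 0.09), while RD28 fell (−0.95 ± 0.10) and shares 21.5% of its words with a copy. For cuticular wax 4 of 11 were lower, KCS1, an elongase of very long fatty acids, by the most (−1.49 ± 0.10), and none higher.

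Called genes of ribosome assembly and RNA chaperoning were all higher. Ribosome biogenesis had 8 of 17 genes higher and none lower, with a median of 0.48, of which 5 were called under upper quartile scaling. SWA1, a nucleolar WD40 protein, had 32.8, 32.5, and 30.9 CPM at 12 h, against 13.0, 12.9, and 11.8 CPM at 3 h (1.35 ± 0.10), PRH75, a nucleolar RNA helicase, had 225, 213, and 242 CPM at 12 h, against 97.4, 94.6, and 97.0 CPM at 3 h (1.24 ± 0.08), and REIL2, a maturation factor of the large subunit needed in the cold, had 71.8, 75.3, and 69.6 CPM at 12 h, against 31.7, 30.97, and 32.1 CPM at 3 h (1.19 ± 0.07, adjusted p = 2.4e-09). Among RNA chaperones and helicases 4 of 10 were higher, with a median of 0.42. GRP7, a glycine-rich RNA-binding protein under clock control, had 2811, 2356, and 3019 CPM at 12 h, against 250.03, 392, and 371 CPM at 3 h (3.01 ± 0.16, adjusted p = 3.8e-10). GRP8, its close relative, had 550.3, 468, and 541 CPM at 12 h, against 156, 192, and 193 CPM at 3 h (1.53 ± 0.09), and RCF1, a helicase known for cold-responsive splicing, rose by 0.98 ± 0.08. GRP7 carries the 3 evening elements printed above. SR splicing factors gave 2 of 20 higher and 2 lower. RS40 had 262, 239.8, and 279 CPM at 12 h, against 72.9, 111, and 101 CPM at 3 h (1.45 ± 0.12), and SR45a had 15.6, 17.4, and 14.9 CPM at 12 h, against 38.2, 31.2, and 32.7 CPM at 3 h (−1.09 ± 0.10). The other 2 calls, SCL30A (0.58) and SR34b (−0.62), were less firm: 1 gene was lower without replicate 3 of the 3 h group or of the 12 h group, 1 was higher under upper quartile scaling, and 4 were higher without replicate 2 of the 12 h group.

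In the heat shock list 6 of 17 genes were higher and 5 lower, and all but BAG6 of the called genes encode transcription factors or a coactivator. HSFA6B had 134, 169.8, and 163 CPM at 12 h, against 34.9, 35.7, and 37.0 CPM at 3 h (2.12 ± 0.11, adjusted p = 5.6e-10), with 0.499 CPM at 22 °C, HSFA1E rose by 1.99 ± 0.20, and HSFA8 by 1.67 ± 0.13. MBF1C, a coactivator of the heat response, fell (−1.55 ± 0.24). None of the 4 chaperones tested was called, among them HSP70, with 46.4 ± 9.27 CPM at 12 h and 41.8 ± 12.5 CPM at 3 h (SD, n = 3), and HSP101 (−0.17). Of the 12 tested genes for reactive oxygen 2 were higher, AOX1A (0.70) and CAT1 (0.56), and 2 lower, RBOHD (−0.68) and CAT2 (−0.50). The share called was 33.3%, against 25.8% of all genes. CAT1 lost its call without replicate 1 of either group (0.46 to 0.49), and CAT2 without replicate 1 of the 3 h group or replicate 2 of the 12 h group, among others (−0.50 to −0.46). In nitrogen assimilation GDH2 was higher (0.86) and the nitrate transporter NRT1.1 (−0.68) and nitrate reductase NIA2 (−0.56) lower, of 12 genes, and 1 was lower without replicate 2 of the 12 h group.

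Of the genes used as references for quantitative PCR 2 were called higher. UBQ10, a polyubiquitin gene, had 3202, 3177, and 3141 CPM at 12 h, against 1699, 1675, and 1576 CPM at 3 h (0.94 ± 0.07, adjusted p = 5.6e-08), with 17.4% of its words shared. UBC21 was called higher as well (0.54), but not without replicate 3 of the 3 h group (0.47). The other 9 of the 11 were not called, and their values ran from −0.02 for TUB2 to 0.45 for ACT8; PP2AA3 had 48.8 ± 2.14 CPM at 12 h and 45.9 ± 0.923 CPM at 3 h and ACT2 had 409 ± 40.9 CPM at 12 h and 376 ± 5.91 CPM at 3 h (SD, n = 3 each). The summed root markers overlapped between the groups, with PYK10, a root and hypocotyl glucosidase, at 3598, 3884, and 3872 CPM at 12 h, against 4439, 3659.8, and 3626 CPM at 3 h (−0.05). The ground tissue regulators SCR (−1.06 ± 0.09) and SHR (−0.77 ± 0.15) were lower, and WOX5, of the root organizing center, was called higher on 44 reads at 12 h and 8 reads at 3 h, but its counts were too low for it to be tested in the model of the 6 cold libraries alone.

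Transcription factors with an antisense transcript near the polyadenylation site are the genes the study was built on. Of its 294 such factors 283 were tested, and 147 were called (51.9%, against 25.8% of all genes), 59 higher and 88 lower, with a median of −0.15. The study defined these antisense transcripts from nascent RNA, not from these libraries. Its control group, transcription factors without such a transcript, was not counted here. Whether the larger share goes with the antisense transcripts or with transcription factors in general was not tested. Of the factors the study follows, WRKY48 had 8.84, 7.50, and 6.86 CPM at 12 h, against 17.8, 20.6, and 17.9 CPM at 3 h (−1.27 ± 0.14), and MYB47 had 7.49, 8.92, and 9.73 CPM at 12 h, against 22.9, 22.7, and 20.1 CPM at 3 h (−1.33 ± 0.12), its 12 h level near that of 22 °C (10.8 CPM). ZAT5 had 3.34, 4.61, and 2.73 CPM at 12 h, against 11.8, 10.5, and 8.12 CPM at 3 h (−1.501 ± 0.20), and COL7 had 36.3, 27.8, and 33.5 CPM at 12 h, against 60.4, 62.5, and 76.0 CPM at 3 h (−1.03 ± 0.11). All 4 were lower in every 12 h library than in any at 3 h. Groups without overlap, in either direction, were found for 49.5% of all genes tested and for 5150 of the 5271 called. BBX28 (−0.08), SCL8 (−0.09), and HYH (−0.01) were not called, and their groups overlap. Levels at 22 °C differed among these genes. ZAT5 (13.7, 16.9, and 17.4 CPM at 22 °C) and COL7 (mean 98.4 CPM) were highest at 22 °C, whereas WRKY48 (mean 3.16 CPM) was lowest there. BBX28 had a mean of 70.3 CPM at 22 °C, against 214 CPM at 3 h and 203 CPM at 12 h. SCL8 was also lowest at 22 °C (49.7 CPM). HYH had 29.6 CPM at 22 °C, 31.6 CPM at 3 h, and 31.4 CPM at 12 h.

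Transcript choice within loci was measured apart from the level. For 6739 loci the shares of their transcripts were tested, and 67 (0.994%) were called, which needed an adjusted p below 0.05 and a transcript whose share moved by 10 points or more. The largest shift of a locus had a median of 7.83 points over all loci tested. The p-value is per locus, and the transcript given is the one whose share moved most. Of the 67 called, 38 loci were not called as genes, 14 were higher, and 15 lower. Shares rest on the assignment of reads among near-identical transcripts, and shares at 0 or 100% are as deposited. GAD2, a glutamate decarboxylase picked after its values were seen, had at least 4815 reads in each library. Its transcript AT1G65960.3 took 58.2, 58.9, and 60.7% of the reads at 12 h, against 11.9, 17.65, and 17.3% at 3 h. AT4G23000.1 took 55.6, 40.9, and 84.2% at 12 h and 0% in each 3 h library. Both held in all 6 fits that left out 1 cold library. JMJD5, the only clock, SR, or RNA chaperone gene called, had 73.2, 92.1, and 71.5% in AT3G20810.4 at 12 h and 0% at 3 h, where its locus had as few as 13 reads, and its call held in 4 of the 6 fits.

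Other called loci were less stable or had smaller shifts. AT5G06270.2 took 100% of its locus in every 12 h library, against 5.36, 0, and 0% at 3 h, and held in 5 of the 6 fits. AT1G13570.1 took 37.2, 21.9, and 34.0% at 12 h, against 94.6, 84.4, and 93.6% at 3 h, and held in 1. AT1G50110.2 took 0% at 12 h, against 75.8, 47.7, and 53.9% at 3 h, and held in none. In all, 25 of the 67 loci kept an adjusted p under 0.05 in each of these 6 fits, and 19 of them also with limma's test. Among the 19, picked after their values were seen, are DWF1, an enzyme of brassinosteroid synthesis, with 82.6, 75.4, and 72.0% in AT3G19820.2 at 12 h, against 56.1, 52.8, and 52.4% at 3 h, and SFR6, a Mediator subunit needed for COR gene expression in the cold, with 0% in AT4G04920.1 at 12 h, against 21.2, 27.1, and 18.7% at 3 h. Neither DWF1 nor SFR6 was called as a gene.

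**Figure D5:**
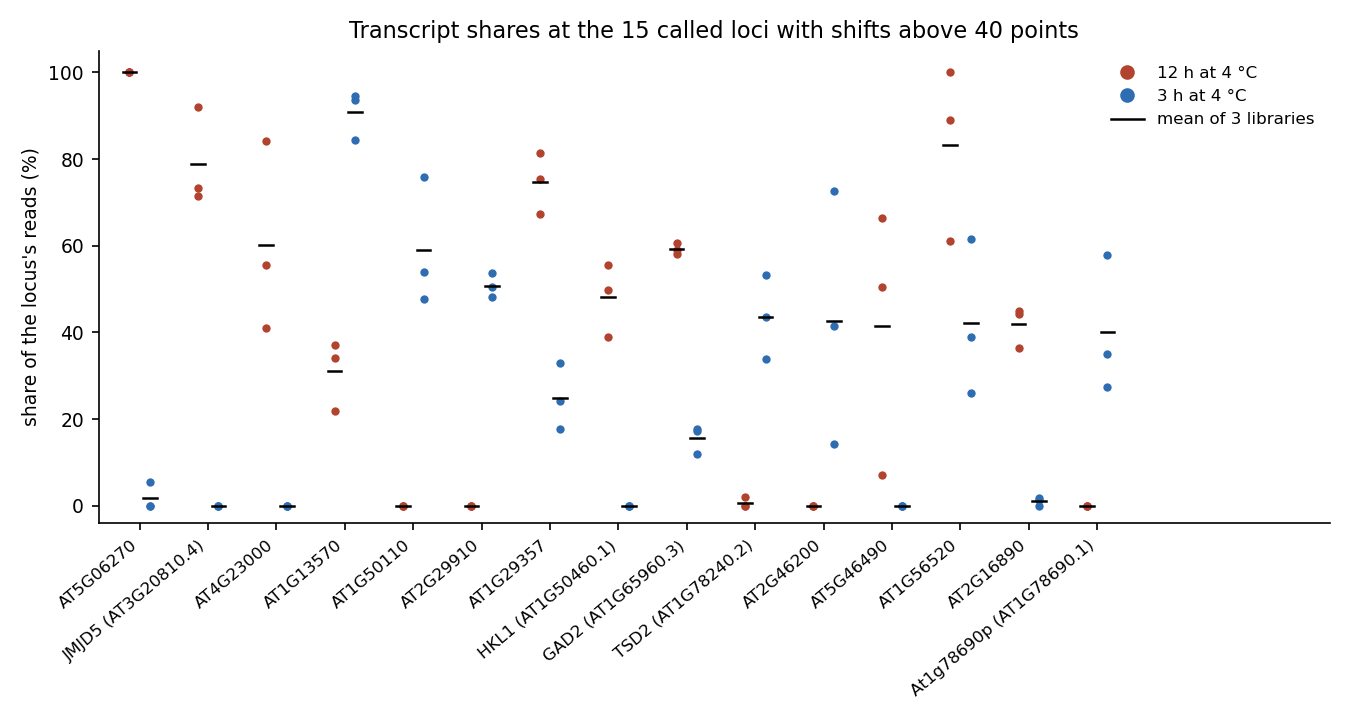
Share of the reads of its locus (percent) taken by the transcript with the largest shift, in each 12 h and 3 h library, for the 15 called loci with shifts above 40 points; bars are means of 3. GAD2 has narrow groups, 58.2 to 60.7% at 12 h and 11.9 to 17.65% at 3 h, whereas the shares of AT5G46490 spread from 7.16 to 66.4% at 12 h.

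Called genes were spread over the genome and differed in level more than in length. On the 5 chromosomes 10.6% to 12.0% of the tested genes were higher and 14.0% to 15.7% lower. The median transcript length was 1713 bases for higher genes, 1654 for lower genes, and 1680 for all. The median level over the 6 cold libraries was 23.7 CPM for higher genes and 8.88 CPM for lower genes, against 15.1 CPM for all.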

How the data were processed

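RNA was measured in 9 strand-specific libraries of total RNA from pooled seedlings, of which the 6 cold libraries were compared here. The authors removed ribosomal reads with SortMeRNA 4.3.4, trimmed with Trimmomatic 0.32, checked quality with FastQC 0.11.9, and quantified ARAPORT11 transcripts with Salmon 1.6.0. The deposited files give, per the file headers, estimated counts and TPM for each of 53467 transcripts. Salmon shares reads among alike transcripts, so the level of a gene with a near copy is uncertain, and the share of its 31-base words found in other genes is given where it is large.

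Estimated counts, deposited by the authors, were summed per locus (32310 loci) and rounded. In edgeR 4.0.16 (R 4.3.3), 20460 loci passed filterByExpr, were scaled by TMM, and were fitted in 1 quasi-likelihood model of all 9 libraries; p-values were adjusted by Benjamini and Hochberg over all loci. Calls needed an adjusted p below 0.05 and a log2 difference of 0.5 or more in either direction. SE is the fold change over the root of F. The same model gave transcript shares (diffSpliceDGE, Simes p per locus, shift of at least 10 points). TPM served only for gains and losses per length and for 1 alternative. Replicates are separate plates of 1 experiment, and p-values measure the spread between them. Libraries of the same group differed by more than sampling noise (chi-square per degree of freedom 3.39 to 13.1), so all counted as separate.

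Named genes were the 8 largest rises and falls of called genes without overlap between the groups and with 10 CPM or more on the higher side, in each list as a rule the 3 called members of smallest p and the uncalled member of highest level plus members that give its range, the 5 largest gains and losses in CPM, the 5 usage loci of largest shift, and 8 genes the study follows. The list rule was not kept throughout. Called members such as COL1 (1.25), COL2 (−1.02), and IAA26 (1.02) and several uncalled members are not described above, while others, such as IAA19 and ICE1, are. The usage loci GAD2, DWF1, SFR6, and AT5G46490 lie outside the 5 largest shifts and were picked after their values were seen. Members and lists were chosen with earlier results of these data known. Of 562 list entries 543 matched loci. Promoters are RefSeq's (TAIR10.1), 250 bases before the gene start, and the deposited files hold no coordinates; 1 further promoter sequence is not reported here. The tests were tried on simulated data with known changes. Alternatives were DESeq2 1.42.0, its size factors, upper quartile scaling, other filters and thresholds, counts from TPM, organelle genes left out, the 6 cold libraries alone, a replicate block, limma 3.58.1 for usage, and each replicate left out.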

Additional observations from a re-analysis of the deposited data

How the results depend on the processing

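None of the 5271 called genes turned its direction under any alternative in which it was tested. List medians close to 0, such as that of light-harvesting and RBCS genes (−0.16 to 0.03), changed sign under some. Of the 20460 genes tested, 5271 were called, against 8121 with no fold minimum (3867 higher) and 2348 when the log2 change had to reach 1 (1150 higher, 1198 lower). The split between higher and lower genes was 2247 and 3024, against 1933 and 3629 under upper quartile scaling (34.8% higher, where TMM gave 42.6%), which moved the median of all genes to −0.11. Leaving out 1 library gave 2136 to 2297 higher and 2737 to 2997 lower genes. Of 259 listed or named genes called, 208 were tested and called under every alternative other than a stricter threshold, 35 lost the call in at least 1, and the other 16 kept it wherever they were tested but were left out by the filter of at least 10 counts in every library or, for WOX5, also by that of the 6 cold libraries alone.

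Replicate numbers did not pair the libraries: the deviations of 12 h and 3 h libraries of the same number correlated at −0.15, −0.05, and 0.02. With the replicate number as a block, 2199 genes were higher and 2921 lower, and 37 loci changed in transcript usage. Calls of usage were the least stable. The 67 loci became 307 with limma, 46 at a shift of at least 20 points, and 42 to 73 with 1 library left out (42 without replicate 3 of the 3 h group, 44 without replicate 1 or 2 of that group). The cause was not tested.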
